A study of Mus musculus with 2 samples.

Results

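Genes for ion channels, neurotransmitter receptors, solute carriers and adhesion or guidance molecules whose promoters carried H3K27me3 and not H3K4me3 were examined for ubiquitylated histone H2A (uH2A). Members were taken from the study's list of genes with a histone mark class, of which 1999 rows were at hand and 636 had the H3K27me3-only class. A gene was a member if it had this class and its symbol began with the letters of a channel, receptor, transporter, adhesion or guidance family or of the synaptotagmins, which gave 101 genes. The rule also set aside Cacng4 and symbols that begin with Grip or Grif, which removed 0 genes of this class from the rows at hand. All 101 lay on autosomes, and no member's window overlapped that of another listed gene. The other 1363 rows at hand had the H3K4me3-only class, so genes with both marks or with neither were absent. Values over all listed genes describe this mix of classes and not every gene of the study.

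The study asked where uH2A depends on Bmi1. Chromatin was precipitated with the anti-uH2A antibody E6C5 from untreated mouse embryonic fibroblasts (MEFs) of C57BL/6 background that had been immortalized with TBX2. The cells were Bmi1 wild-type in 1 library and Bmi1 null in the other, each from 1 cell line. The wild-type library held 6114925 mapped tags and the null library 8020248. With 1 library per genotype no difference below has a replicate check, a genotype cannot be told apart from its cell line or library, and every interval given for a count or ratio is an exact 95% interval that covers counting error only.

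Polycomb repressive complex 1, of which Bmi1 is a component, attaches ubiquitin to histone H2A, and Polycomb repressive complex 2 methylates histone H3 to give H3K27me3. Genes that act in neurons, muscle or transporting epithelia are commonly held silent by these complexes in cells of other lineages. Channels, receptors and carriers set membrane potential, signalling and solute uptake, whereas cadherins, Eph receptors and neurexins join or guide cells.

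The results turn in part on which start sites stood at either end of the range, so promoters of genes near the top and at the bottom of the ratios of wild-type to null tags are shown first. Slc35f3, the highest, is not among them because it had more than 1 promoter entry, and Slc22a3 is shown where Kcnh6 had an equal ratio; both choices were made after the values were seen. They are RefSeq promoters of build GRCm38.p6, a later build than the mm8 of the tag positions, on the strand of the gene and with each CG in capitals. Cacna2d2 encodes an auxiliary subunit of voltage-gated calcium channels (chr9:107399630-107399929, + strand). Slc22a3 encodes a carrier of organic cations (chr17:12507655-12507954, - strand). At the low end, Slco4c1 encodes an organic anion carrier (chr1:96872122-96872421, - strand) and Gabrg3 a subunit of the GABA-A receptor (chr7:57387166-57387465, - strand).
Cacna2d2: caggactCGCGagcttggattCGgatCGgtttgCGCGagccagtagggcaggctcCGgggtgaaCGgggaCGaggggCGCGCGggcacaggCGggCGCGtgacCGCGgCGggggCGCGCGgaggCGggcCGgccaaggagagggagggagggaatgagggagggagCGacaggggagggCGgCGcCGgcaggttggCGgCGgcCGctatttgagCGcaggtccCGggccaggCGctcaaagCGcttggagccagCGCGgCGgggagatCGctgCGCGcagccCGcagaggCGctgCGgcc
Slc22a3: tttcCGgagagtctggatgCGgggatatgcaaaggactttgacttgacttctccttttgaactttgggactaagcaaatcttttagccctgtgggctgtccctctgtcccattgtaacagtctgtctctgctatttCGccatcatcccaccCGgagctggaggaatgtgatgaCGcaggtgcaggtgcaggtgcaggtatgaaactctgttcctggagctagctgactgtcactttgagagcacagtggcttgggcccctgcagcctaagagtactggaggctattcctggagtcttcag
Slco4c1: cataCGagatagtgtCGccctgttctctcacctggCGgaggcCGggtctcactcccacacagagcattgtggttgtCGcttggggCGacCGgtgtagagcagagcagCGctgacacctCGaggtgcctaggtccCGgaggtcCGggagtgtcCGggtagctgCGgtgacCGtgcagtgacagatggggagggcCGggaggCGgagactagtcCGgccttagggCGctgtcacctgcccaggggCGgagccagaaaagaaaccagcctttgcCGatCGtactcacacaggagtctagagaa
Gabrg3: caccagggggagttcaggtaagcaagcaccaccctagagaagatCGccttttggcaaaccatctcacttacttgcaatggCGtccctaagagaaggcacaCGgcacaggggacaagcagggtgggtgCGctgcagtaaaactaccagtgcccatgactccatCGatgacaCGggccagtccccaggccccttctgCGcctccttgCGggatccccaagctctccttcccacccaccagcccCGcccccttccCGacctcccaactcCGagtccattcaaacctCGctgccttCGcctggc
The Cacna2d2 promoter had 43 CG and a GC share of 75.7%, and that of Slc22a3, with an almost equal ratio, had 5 CG and 52.0%. Slco4c1 had 21 CG and Gabrg3 13, beside a median of 7.00 over the 32851 promoters of the table. Since 73 of the 101 members (72.3%) had an entry, fewer than the 80% set as a minimum, a comparison of CG content over the members was void.

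uH2A tags were counted from 5 kb before to 5 kb after each transcription start site (TSS), and wild-type counts were multiplied by 1.31 to equal library totals. The members held 4407 wild-type and 4350 null tags. Scaled to equal depth, the pooled wild-type tags were 1.33 times the null tags (1.27 to 1.39), and the median of the 101 single ratios was 1.28. Over all 1999 genes the pooled ratio was 1.22 and the median 1.18. Ratios ran from 0.538 to 2.79 and were above 1 at 82 members (81.2%), beside 66.7% of all listed genes and 82.1% of the other H3K27me3-only genes.

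At 34 members (33.7%) the whole interval was above 1, against 22.9% of all listed genes. The whole interval was below 1 at 4 members, where the background was 4.90%: Slco4c1, Slc5a1, Kcnj10 and Kcnv1. A ratio of 1.5 or more was reached by 36 members (35.6%) with a background of 26.3%, and the reciprocal of 1.5 or less by 8 (7.92%) with a background of 8.45%. On the upper side the members were close to their class: of the other 535 H3K27me3-only genes 36.4% had an interval above 1, of the 1363 H3K4me3-only genes 16.7%. On the lower side they were not as close, since 0.935% of the other H3K27me3-only genes had an interval below 1, against 3.96% of members, and 2.43% were at the reciprocal of 1.5 or less, against 7.92%. That gap rested on few genes and was lost with distinct tags, at 0.187% against 0% and 1.68% against 1.98%, and with scaling within 1 Mb, at 3.74% against 2.97% and 5.05% against 4.95%. Across the autosomes, 183438 tiles of 10 kb with at least 40 tags had a median ratio of 0.975, with 11.7% above and 11.1% below 1 by the same interval, so such calls arose in either direction without regard to genes.

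**Figure D1:**
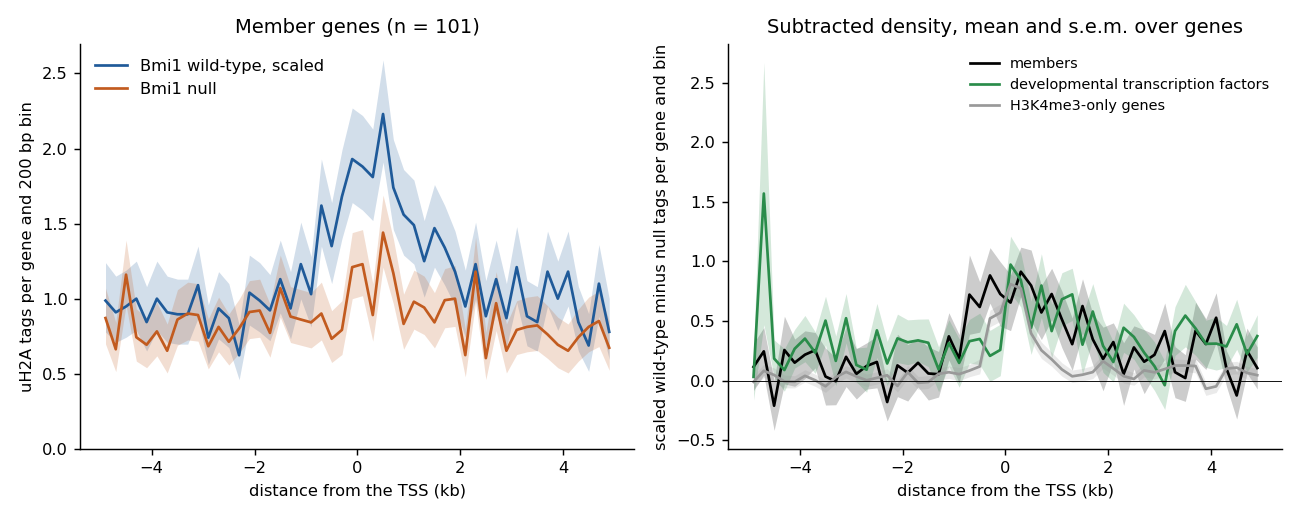
Left, mean uH2A tags per gene in 200 bp bins against distance from the TSS in kb at the 101 members, for the scaled Bmi1 wild-type library and the Bmi1 null library, with exact Poisson intervals as bands; the wild-type line is highest at 2.23 and the null line at 1.44. Right, scaled wild-type minus null tags per gene and bin, with the s.e.m. over genes, for the members, the developmental transcription factors and the H3K4me3-only genes; the members' difference gathers around the TSS.

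The plot of tags against distance shows that the difference between the libraries was centred on the start site. In the bin 400 to 600 bp after the TSS wild-type tags reached 2.23 per gene and null tags 1.44, the highest bin of either library. Beyond 3 kb on either side they averaged 0.960 and 0.792. The null library thus kept a smaller rise around the start site. With 1 tag per position and strand the highest wild-type bin began at 400 bp, with 1.52 tags per gene. The highest null bin then began at -200 bp, with 1.04. Within 1 kb of the TSS the members held 1296 wild-type and 1013 null tags, a pooled ratio of 1.68 (1.54 to 1.82). Upstream of that, from -5 to -1 kb, the ratio was 1.14 (1.06 to 1.22), and downstream, from +1 to +5 kb, 1.31 (1.22 to 1.40). In the same order of regions, the other H3K27me3-only genes had 1.52, 1.30 and 1.40, and all listed genes 1.39, 1.11 and 1.19. By the interval, 23 members (22.8%) were above 1 within 1 kb, against 16.7% of all listed genes. When repeated tags were dropped this left 9 members (8.91%), near the background of 7.65%.

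**Figure D2:**
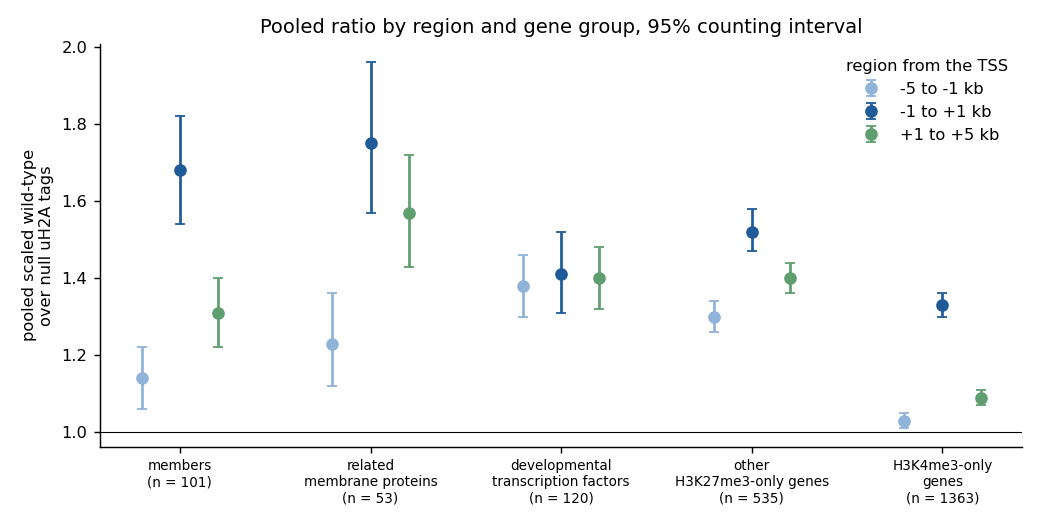
Pooled ratio of scaled wild-type to null uH2A tags in 3 regions around the TSS, with 95% counting intervals, for the members and 4 comparison groups. Members run from 1.14 upstream to 1.68 within 1 kb, while the developmental transcription factors lie between 1.38 and 1.41 in each region. The other groups also rise from upstream to within 1 kb. Related membrane proteins run from 1.23 to 1.75, other H3K27me3-only genes from 1.30 to 1.52 and H3K4me3-only genes from 1.03 to 1.33.

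Expressed as scaled wild-type minus null tags per 200 bp bin, the members had a mean density of 0.283 ± 0.0380 (s.e.m. over 101 genes) across the window and 0.680 ± 0.0921 within 1 kb. The other H3K27me3-only genes had 0.351 ± 0.0175 and 0.572 ± 0.0357. Members minus these genes came to -0.0673 (-0.149 to 0.0147) across the window, an interval over the variation between genes that includes 0. Within 1 kb the sign was the opposite, 0.108 (-0.0856 to 0.302), again with 0 inside. From -5 to -1 kb the members were lower than these genes, by -0.126 (-0.247 to -0.00554), an interval without 0, and with repeated tags dropped by -0.0789 (-0.143 to -0.0151). Scaling within 1 Mb gave -0.106 (-0.214 to 0.00147). Set against the 120 developmental transcription factors of the class, the members differed by -0.0863 (-0.191 to 0.0186), and from -5 to -1 kb by -0.211 (-0.387 to -0.0336). With repeated tags dropped the upstream difference was -0.119 (-0.200 to -0.0387), and scaled within 1 Mb -0.219 (-0.393 to -0.0448). In their bin at -4800 bp these factors held 296 wild-type and 200 null tags, a difference of 1.57 with an s.e.m. of 1.10. Across the window, members minus 53 related membrane proteins, which the letters do not catch, came to -0.129 (-0.274 to 0.0164). With repeated tags dropped this was -0.0635 (-0.142 to 0.0153). Scaled within 1 Mb it was -0.123 (-0.236 to -0.00906), an interval without 0. Against all H3K4me3-only genes the members were higher across the window, by 0.171 (0.0938 to 0.248). The 45 H3K4me3-only genes with the same letters in their symbols had 0.162 ± 0.0687, and the difference of 0.121 (-0.0324 to 0.275) included 0.

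A comparison of shape was chosen after the data had been seen. Its intervals cover variation between genes in 1 library per genotype and cannot serve as independent support. The density within 1 kb exceeded that of the rest of the window by 0.496 ± 0.0977 at the members and by 0.134 ± 0.0762 at the developmental transcription factors, such as homeobox genes. The difference of 0.362 (0.119 to 0.605) did not include 0, and after repeated tags were dropped it was 0.209 (0.0724 to 0.345). Against the other H3K27me3-only genes, with 0.277 ± 0.0395, the members' value was higher by 0.219 (0.0126 to 0.426), by 0.122 (0.00647 to 0.238) without repeated tags and by 0.192 (0.00595 to 0.378) scaled within 1 Mb. Related membrane proteins that the letters do not catch (53 genes) had 0.491 ± 0.135, close to the members. H3K4me3-only genes, at 0.330 ± 0.0254, also had a narrow profile, and the members' difference from them of 0.166 (-0.0323 to 0.363) included 0.

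**Figure D3:**
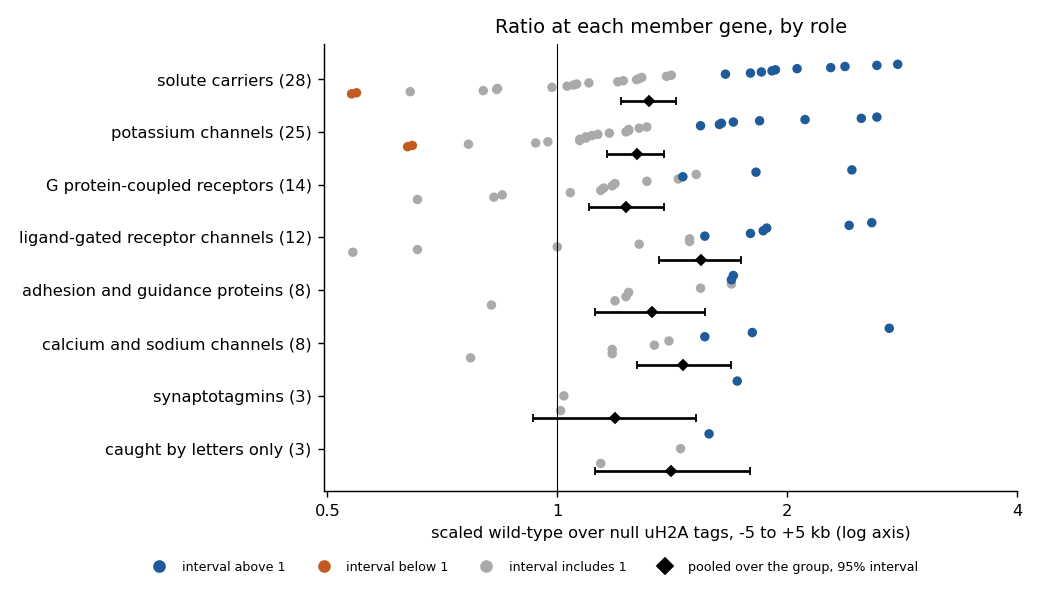
Ratio of scaled wild-type to null uH2A tags from -5 to +5 kb of the TSS at each of the 101 members on a log axis, grouped by role with the number of genes in brackets; colour marks the side of 1 on which the 95% counting interval lies, and diamonds give the pooled ratio of a group with its interval. The pooled ratios run from 1.19 to 1.54, and most groups hold genes on both sides of 1.

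Potassium channels, which repolarize excitable cells, formed a group of 25 members with 1085 wild-type and 1124 null tags and a pooled ratio of 1.27 (1.16 to 1.38). Of these, 8 had an interval above 1 (32.0%, all listed genes 22.9%) and 2 of the 25 below, where the background was 4.90%. With distinct tags 3 (12.0%) were above and 0 below, against 11.8% and 1.05%. Scaled within 1 Mb there were 3 (12.0%) above and 1 of the 25 below, against 13.2% and 7.20% of all listed genes. Of the other H3K27me3-only genes, 36.4% were above 1 by all tags, 20.7% with distinct tags and 20.2% scaled within 1 Mb. Below 1 were 0.935%, 0.187% and 3.74% of them, and these shares serve for each role that follows. Kcnh6, an ERG-type channel, had 52 wild-type and 26 null tags, which gave 2.62 (1.61 to 4.38). Kcnc1, for a fast Shaw-type channel, had 47 tags in each library and a ratio of 1.31 (0.857 to 2.01). Kcnd3, which carries A-type current, had 55 and 44 tags and a ratio of 1.64 (1.08 to 2.50). At the other end stood Kcnj10, the inward rectifier of glia, with 33 wild-type and 68 null tags, or 0.637 (0.407 to 0.978). Kcnv1, a modifying subunit that is silent alone, was close to it with 33 and 67 tags. Over the group the ratio was 1.80 (1.51 to 2.14) within 1 kb and 1.01 (0.878 to 1.16) upstream.

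Calcium and sodium channels (8 members) had 405 wild-type and 363 null tags, a pooled ratio of 1.46 (1.27 to 1.69). Cacna2d2 at chr9:107252980-107262979 of mm8 led them with 85 wild-type and 41 null tags, or 2.72 (1.85 to 4.05). The T-type pore subunit gene Cacna1i had almost as many wild-type tags, 84, but 82 null tags, and a ratio of 1.34 (0.979 to 1.84), which scaling within 1 Mb turned to 0.911 (0.664 to 1.25). Cacna1d, for an L-type pore subunit, had 27 and 46 tags, which gave 0.770 (0.460 to 1.26). The intervals of Cacna1i and Cacna1d included 1.

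Ligand-gated receptor channels (12 members) had a pooled ratio of 1.54 (1.36 to 1.74), from 578 wild-type and 492 null tags, and 6 of the 12 had an interval above 1, against 22.9% of all listed genes; with distinct tags, and also scaled within 1 Mb, there were 4 (33.3%), against 11.8% and 13.2%. The pooled interval overlapped that of each of the other roles, and with distinct tags the ratio was 1.41, beside 1.43 for calcium and sodium channels. The kainate receptor gene Grik3 had 55 wild-type and 28 null tags, or 2.58 (1.61 to 4.22). Grin3b, for an NMDA receptor subunit, had 90 and 49 tags, the most wild-type tags of the role, and a ratio of 2.41 (1.68 to 3.49). Chrna4 encodes a subunit of neuronal nicotinic receptors and had 78 and 57 tags, or 1.79 (1.26 to 2.57). Of the 3 GABA-A receptor genes, Gabrg3 and Gabra5 lay at the low end, and Gabrd had 33 and 29 tags, or 1.49 (0.879 to 2.55). Gabrg3 had 14 wild-type and 34 null tags, or 0.540 (0.268 to 1.03), and Gabra5 had 16 and 32, or 0.656 (0.336 to 1.23). Gabrg3 and Gabra5 are neighbours on chromosome 7. Within 1 kb Gabra5 had 1 wild-type and 12 null tags, or 0.109 (0.00256 to 0.739), but with distinct tags 1 and 7, and an interval of 0.00406 to 1.43.

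Among 14 G protein-coupled receptors the tags numbered 598 in wild-type and 637 in null, a pooled ratio of 1.23 (1.10 to 1.38). The 21.4% of genes with an interval above 1 were near the 22.9% of all listed genes. With distinct tags 2 (14.3%) had such an interval, against 11.8%, and scaled within 1 Mb 1 (7.14%), against 13.2%. The proton-sensing receptor gene Gpr4 had 37 and 20 tags, or 2.43 (1.37 to 4.41). Htr1a, for a serotonin receptor, had 21 and 42 tags, or 0.656 (0.369 to 1.13).

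Solute carriers were the largest role, with 28 members, 1165 wild-type and 1159 null tags and a pooled ratio of 1.32 (1.21 to 1.43). Here 10 genes (35.7%) had an interval above 1 and 2 (7.14%) below, against 22.9% and 4.90% of all listed genes. With distinct tags there were 5 (17.9%) and 0, against 11.8% and 1.05%, and scaled within 1 Mb 5 and 1, against 13.2% of all listed genes above 1 and 7.20% below. The shares above 1 in the other H3K27me3-only genes were 36.4% by all tags, 20.7% with distinct tags and 20.2% scaled within 1 Mb. Slc35f3 had 49 wild-type and 23 null tags, or 2.79 (1.67 to 4.81), the highest ratio of all members. Slc22a3 followed with 58 and 29 tags, or 2.62 (1.65 to 4.25). Slc15a1, the peptide carrier of the intestine, had 69 and 38 tags, or 2.38 (1.58 to 3.64), and no listed peak. The glycine carrier gene Slc6a5 had 51 and 35 tags, or 1.91 (1.22 to 3.03), and with distinct tags an interval of 0.911 to 2.76. Slco4c1 had the lowest ratio of all members with 16 and 39 tags, or 0.538 (0.281 to 0.985). Slc5a1, which takes up glucose with sodium in the intestine, had 20 and 48 tags, or 0.546 (0.307 to 0.938). For Slc34a2, a phosphate carrier, the ratio of 0.833 (0.546 to 1.26) came from 40 and 63 tags.

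Adhesion and guidance genes (8 members) had 295 wild-type and 292 null tags and a ratio of 1.33 (1.12 to 1.56). Epha8, an ephrin receptor gene, had 44 and 34 tags, or 1.70 (1.06 to 2.74). This interval included 1 with distinct tags, 0.780 to 2.45, and with scaling within 1 Mb, 0.733 to 1.89. Nrxn2, which encodes a presynaptic adhesion protein, had 40 and 64 tags, or 0.820 (0.538 to 1.24), and within 1 kb 9 and 36, or 0.328 (0.139 to 0.694). Counting 1 tag per position and strand there left 9 and 24, and an interval of 0.197 to 1.07. The 3 synaptotagmins, which act in vesicle traffic, had a pooled ratio of 1.19 (0.930 to 1.52), made up of 2.38 (1.53 to 3.77) within 1 kb and 0.520 (0.298 to 0.876, with distinct tags 0.288 to 1.02) from -5 to -1 kb besides the downstream part, with Syt15 at 46 and 35 tags and Syt7 at 47 and 61.

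The letters also caught 3 genes that belong neither to the families meant nor to the synaptotagmins. They were Gprin1, an inducer of neurite outgrowth, the protease gene Htra3 and the receptor kinase gene Adrbk2. Gprin1 had 25 wild-type and 4 null tags within 1 kb, or 8.20 (2.83 to 32.4), and over the window 59 and 49. Htra3 had 61 and 55 tags across the window and Adrbk2 33 and 38. Roles followed the letters too. The channel-interacting protein gene Kcnip1 was thus counted with potassium channels, and the neurotrophin receptor gene Ntrk3 with adhesion and guidance genes.

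**Figure D4:**
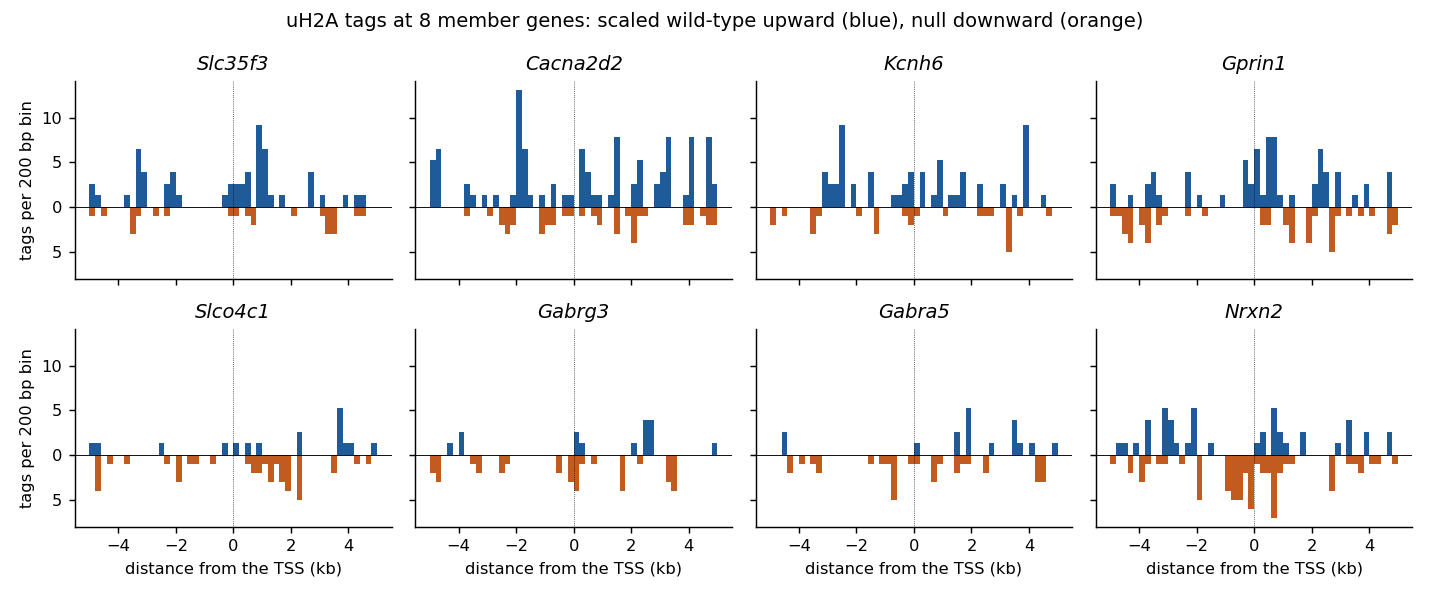
uH2A tags per 200 bp bin against distance from the TSS in kb at 8 members, with scaled Bmi1 wild-type tags drawn upward and Bmi1 null tags downward. In the upper row are Slc35f3, Cacna2d2, Kcnh6 and Gprin1, with 49, 85, 52 and 59 wild-type tags; in the lower row Slco4c1, Gabrg3, Gabra5 and Nrxn2, with 16, 14, 16 and 40.

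A peak of wild-type over null tags from the authors' list overlapped the window of 18 members (17.8%), against 11.8% of all listed genes, and came within 1 kb of the TSS at 5 (4.95%), against 4.15%. These peaks had been called on wild-type against null tags of the same libraries, so the ratio inside them is what selected them. The 20 peaks at members held 9 to 34 wild-type tags, with a median of 17.5, at 1 to 18 distinct positions and strands. Cacna1i had 34 wild-type and 8 null tags in its peak at chr15:80117034-80119701 of mm8, from 18 distinct wild-type positions. The peak at Slc44a5, for a choline transporter-like protein, held 17 wild-type tags at 1 position and strand. Slc16a11, of the monocarboxylate carrier family, had a peak of 19 wild-type and 4 null tags, yet 47 and 56 tags over its window, or 1.10 (0.731 to 1.65). Of the 18 members with a peak 13 had an interval above 1 over the window, and peak tags inside the window counted toward both. The peaks at Grik3 (-5815 to -5000 bp from the TSS) and Chrna4 (4946 to 8058 bp) overlapped the window only at its edge. Of the 83 members without a peak 21 (25.3%) had such an interval, against 18.2% of listed genes without a peak.

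Repeated tags made up 31.7% of wild-type and 31.6% of null tags in the members' windows, and within 1 kb of the TSS 29.0% (26.6 to 31.6) and 24.8% (22.1 to 27.6). With 1 tag per position and strand the pooled ratio was 1.30 (1.23 to 1.36), and 17 members (16.8%) had an interval above 1, against 11.8% of all listed genes. An interval below 1 was then found at 0 members, where the background was 1.05%. All 4 members with an interval below 1 by all tags then had one that included 1, as did, among those above 1, Syt15 (0.680 to 2.09) and Slc44a5 (0.497 to 2.08). The variance of the split of tags between libraries over members was 2.76 times the binomial one with all tags and 1.28 times with distinct tags. The spread over genes thus exceeded counting error, which is all that the intervals cover, so those from all tags may be too narrow. How much of this spread was true difference between genes was not tested.

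**Figure D5:**
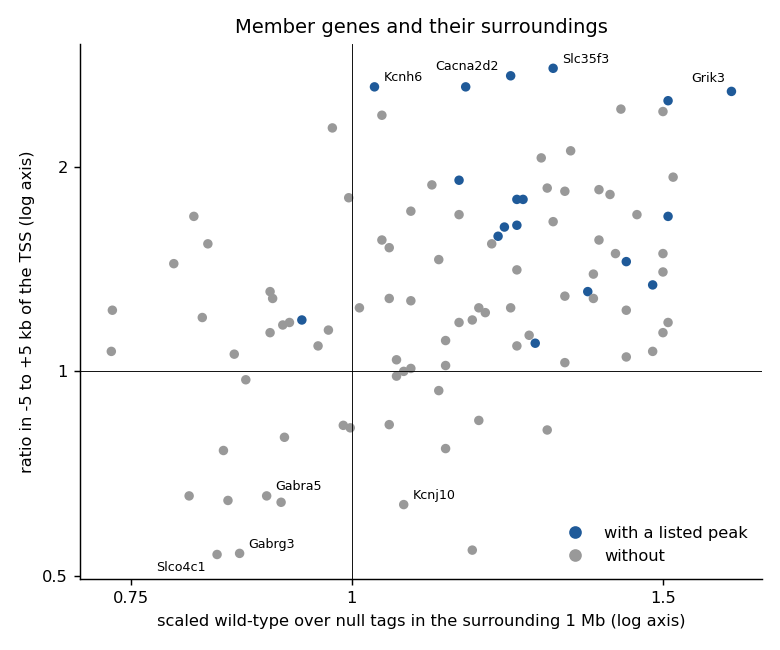
Ratio of scaled wild-type to null uH2A tags in the window of each of the 101 members against the same ratio in the surrounding 1 Mb without the window, both on log axes, with members that overlap a listed peak in blue. Surrounding ratios run from 0.731 to 1.64, and Gabrg3, Gabra5 and Slco4c1 lie where both ratios are under 1.

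The surroundings of the members, like those of other listed genes, also differed between libraries. In the 1 Mb around the TSS, outside the window, the ratio had a median of 1.15 over members and was above 1 at 73 of them (72.3%). These are near the median of 1.10 and share of 68.3% over all listed genes, and the 1.16 and 77.4% of the other H3K27me3-only genes. Across the 101 members the ratio of the window and that of its surroundings had a Pearson correlation of 0.435 on the log2 scale and a Spearman correlation of 0.425. Over all listed genes these were 0.313 and 0.318, and over the other H3K27me3-only genes 0.255 and 0.246. With distinct tags the members had 0.380 and 0.388. Window and surrounding ratios come from the same 2 libraries and the same scaling, and genes are not independent replicates. The 28 members with a surrounding ratio under 1 had a pooled window ratio of 1.05 (0.959 to 1.14), and the other 73 had 1.43, with a lower bound of 1.36. Scaled within 1 Mb the ratios were 1.18 (1.08 to 1.29) and 1.14 (1.09 to 1.20). That scaling divides by the ratio that made the split, so it shrinks the contrast by construction, and no conclusion is drawn from it.

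When wild-type tags were scaled by the surrounding 1 Mb in place of the library totals, the members' pooled ratio was 1.15, and 18 members (17.8%) had an interval above 1, against 13.2% of all listed genes. From -5 to -1 kb the ratio was then 0.977, and within 1 kb it was 1.47. The excess near the TSS was thus present under either scaling, and the upstream excess was not. Grik3 had the highest surrounding ratio, 1.64, and its window ratio became 1.57 (0.978 to 2.57). Kcnh6, with a surrounding ratio of 1.03, had 2.55 (1.56 to 4.25). For Kcnj10 it was 0.593 (0.379 to 0.911), and for Slco4c1 the interval of 0.334 to 1.17 included 1. It also included 1 at Kcnd3 (0.875 to 2.02), Gpr4 (0.969 to 3.12) and, over the full window, Gprin1 (0.877 to 1.94), and at Slc44a5 (0.884 to 2.41) and Kcnv1 (0.484 to 1.17). For Nrxn2 the window interval came to lie below 1, at 0.636 (0.418 to 0.959). Among genes named here, besides Cacna1i, ratios above 1 whose intervals included it turned below it at Gabrd (0.995), Kcnc1 (0.968), Slc16a11 (0.864), Adrbk2 (0.761) and Syt7 (0.932), and at Adrbk2 and Syt7 they did so with distinct tags too, at 0.888 and 0.938. Whether the surroundings contribute to the difference at the members was not tested.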

How the data were processed

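Mapped 25 bp tags of 1 uH2A ChIP-Seq library per genotype were used as the authors deposited them, mapped to mm8, with repeated positions kept and no normalization. The authors also deposited a peak list with the count of wild-type tags in each peak, its fold (a ratio of wild-type to null) and its p-value. Only positions, counts and, for 1 alternative, the p-value were used, and no fold or p-value is printed. The class and TSS of each gene came from a list of the study held in part. The study had taken the class from H3K4me3 and H3K27me3 peaks of earlier work.

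Tags were placed at the lower end of their alignment and counted in 200 bp bins from -5 to +5 kb of the TSS, with Python 3.11.15, numpy 2.4.6, scipy 1.17.1, pandas 2.3.3 and matplotlib 3.10.9. Wild-type counts were scaled by 1.31, or by 1.28 with 1 tag per position and strand. Ratios have Clopper-Pearson intervals. The counting was tested on simulated data. No test was run. Alternatives changed the repeated tags, tag placement, scaling, window, negative bins and members.

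Named genes were up to 14 with a peak, ordered by distinct wild-type positions in it, the highest and lowest ratio of each role among genes with at least 40 tags, and the 5 highest and 5 lowest differences with distinct tags, 29 in all, of which 1 is not reported here. Kcnv1, Slc5a1, Slc44a5 and Gabrd were named after their values were seen. Kcnip1 and Ntrk3 are named only for the role that their letters gave them. Promoter sequences were to be the 2 highest and 2 lowest ratios among named genes. Slc35f3, the highest, was passed over because it had more than 1 promoter entry, and Slc22a3 was taken before Kcnh6 at an equal ratio for its larger number of tags; both choices were made after the values were seen. The members and lists were chosen with earlier results of these data known.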

Additional observations from a re-analysis of the deposited data

How the results depend on the processing

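Over the window and within 1 kb, the pooled and median ratios of the members stayed above 1, and the density above 0, under the alternatives run. From -5 to -1 kb they did not: scaled within 1 Mb, the pooled ratio of 1.14 became 0.977 and the density of 0.113 became -0.0193. The difference from other H3K27me3-only genes, whose interval included 0, changed sign in the narrower window. Of 77 recomputed group values, 2 left an interval that excluded 1 or 0 for its other side, both upstream, and 32, that difference included, moved beyond their interval or, for counts, by over 1.5 times. Of 87 recomputed ratios of named genes 3 moved beyond theirs, those of Cacna1i, Grik3 and Grin3b. The causes were not tested.

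With 1 tag per position and strand the density was 0.175 over the window and 0.414 within 1 kb. Then 17 members had an interval above 1 (16.8%, all listed genes 11.8%) and 0 below (all listed genes 1.05%). At the reciprocal of 1.5 or less lay 2 members (1.98%, all listed genes 6.45%). Scaling within 1 Mb gave a pooled ratio of 1.15, a median of 1.14, densities of 0.129 and 0.469, 18 intervals above 1, 21 members at 1.5 or more (20.8%, all listed genes 17.4%, other H3K27me3-only genes 24.1%) and 5 at its reciprocal or less (4.95%, 11.1%, 5.05%). Without members that had a listed peak the pooled ratio was 1.23 and the density 0.203, with 21 intervals above 1 (25.3%, listed genes without a peak 18.2%) and 23 members at 1.5 or more (27.7%, 21.8%), and the difference from other H3K27me3-only genes, which kept their peaks, was -0.148; without peaks their density was 0.294. The peaks were called on wild-type over null tags. In the window of -1 to +1 kb the pooled ratio was 1.68, the median 1.75 and the density 0.680, 55 members were at 1.5 or more (54.5%, all listed genes 44.0%, other H3K27me3-only genes 49.2%), 2 had an interval below 1 (1.98%, 1.80%), 5 had a listed peak, repeated tags were 29.0% of wild-type and 24.8% of null tags, and the difference from other H3K27me3-only genes was 0.108, against -0.0673 in the full window. Negative bins set to 0 gave densities of 0.826 and 1.18, as that setting removes negative values. Restricting the list to a p-value of at most 1e-07 left 11 members with a peak (10.9%, all listed genes 6.05%). The density within 1 kb minus that of the rest of the window, an alternative chosen after seeing the data, was 0.496. Values of the regions beside the start site and of calls within 1 kb were also recomputed after seeing the data. Scaled within 1 Mb, the members' pooled ratio from +1 to +5 kb was 1.13 and the density 0.108, and with distinct tags 9 members had an interval above 1 within 1 kb.

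A window held about 43.1 null tags per member, so intervals of single ratios are wide. Tags are not independent molecules, and 1 library per genotype gives no spread between samples. The gene list was held in part, so shares describe the supplied genes of the H3K27me3-only and H3K4me3-only classes only. No paired analysis was possible because there is 1 library per genotype.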
